A study of Mus musculus with 20 samples.

Results

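The interleukin-18 and interleukin-1 receptor family was followed through 18 RNA-seq libraries of cultured mouse bone marrow cells with both, 1 or no intact alleles of Runx2, a transcription factor of the RUNX family. The members are the 7 genes Il18r1, Il18rap, Il1rl1, Il1r1, Il1r2, Il1rap and Il18, taken by symbol from tables of 49997 genes, and all 7 were found. They were chosen by values of these same libraries, namely the differences between homozygous knockout and wild type in both cell types. For the members, that comparison is therefore given as a description with no test. Every other genotype test reuses wild-type or homozygous libraries of that comparison, so its p-values are not free of this choice. Calls in that comparison are printed for listed pathway and marker genes. Those lists too were chosen with earlier results of these data known, so such calls are not free of that knowledge. Primary cells were sorted as CD201+CD150+cKit+Sca1+Lineage- immunophenotypic stem cells (HSC) or as CD201-CD150-cKit+Sca1+Lineage- progenitors (HPC), and each population was Runx2 WT, Runx2 heterozygous KO (het) or Runx2 homozygous KO (hom). Each of the 6 groups held 3 libraries of polyA RNA. Per the series' design text the material comes from Runx2-flox mice or was knocked out by CRISPR. Which of these holds for a library is not given in its labels, nor are age, strain or Cre line. They also do not say whether replicates came from separate animals or cultures, so p-values measure only the spread between these libraries, which may be technical.

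Receptors of this family carry immunoglobulin domains outside the cell and a TIR domain inside it. A ligand first binds its own chain, which then recruits an accessory chain. The joined TIR domains engage the adaptor MYD88, IRAK kinases and TRAF6 and lead to NF-kB. IL-18 is bound by IL-18Rα (Il18r1) with IL-18Rβ (Il18rap) as its accessory chain. IL-1 is bound by IL-1R1 (Il1r1) and IL-33 by ST2 (Il1rl1), and both use IL-1RAP (Il1rap). IL-1R2 (Il1r2) binds IL-1 without a signalling TIR domain and acts as a decoy. In bone marrow, IL-1 is known to push stem cells towards myeloid output, ST2 marks mast cells and basophils, and IL-18 is best known for acting on T and NK cells together with IL-12.

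Of the 7 genes, 5 lie in a cluster on the plus strand of chromosome 1 and span 467 kb. In mm10 their order is Il1r2 (chr1:40084692-40125230), Il1r1 (chr1:40222480-40316201), Il1rl1 (chr1:40404864-40465418), Il18r1 (chr1:40465552-40500854) and Il18rap (chr1:40515362-40551707). Il1rl2, a related receptor gene that is not among the 7, lies between Il1r1 and Il1rl1 (chr1:40324589-40367555). Il1rl1 ends 133 bases before Il18r1 begins, and Il18r1 and Il18rap are 14.5 kb apart. Il1rap lies at chr16:26581509-26730128 and Il18 at chr9:50554700-50581841. Reads were counted over exons without regard to strand, so reads in exon stretches shared with another gene cannot be assigned. Such stretches make up 5.45% of the exon bases of Il18 (shared with Tex12), 3.13% of those of Il1rap (Gm20319) and 0.836% of those of Il1r2 (Gm16894), and none of the exon bases of the other 4 members.

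Because Runx2 was the deleted gene, the promoter windows of the members were searched for TGTGGT, a core RUNX motif, and its reverse complement ACCACA. A window runs from 250 bases before a RefSeq start site to 50 bases after it, on GRCm38.p6. All 7 members had at least 1 window, 11 in all, and 4 of these 11 held a match, against 16.8% of 32851 windows of all genes. In hom against het HPC, Il18r1, Il18rap, Il1rl1 and Il18 were called, and so was Il1r1, whose windows held no match. In het against WT HPC, Il18r1, Il18 and Il1r1 were called, and Il18rap and Il1rl1 were not. Over all 13855 genes tested, 9.4% were called in the first of these comparisons and 16.1% in the second. Both share libraries with the comparison that chose the members, and a link between match and call was not tested. The 3 windows of the chromosome 1 cluster that held a match are shown, and capitals mark the match. The first belongs to the second of 3 start sites of Il18r1 (chr1:40465371-40465670), with the match beginning at base 21 after the start site. The next is the single window of Il18rap (chr1:40515112-40515411), with the match at base 31. The last belongs to 1 of 2 start sites of Il1rl1 (chr1:40439379-40439678), with the match at base -6.
Il18r1: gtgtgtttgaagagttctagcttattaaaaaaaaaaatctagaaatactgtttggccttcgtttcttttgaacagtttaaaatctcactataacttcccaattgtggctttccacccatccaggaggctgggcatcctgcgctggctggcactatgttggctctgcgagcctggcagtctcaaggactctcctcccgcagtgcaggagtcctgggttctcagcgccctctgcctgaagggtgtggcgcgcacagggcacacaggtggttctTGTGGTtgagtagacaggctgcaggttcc
Il18rap: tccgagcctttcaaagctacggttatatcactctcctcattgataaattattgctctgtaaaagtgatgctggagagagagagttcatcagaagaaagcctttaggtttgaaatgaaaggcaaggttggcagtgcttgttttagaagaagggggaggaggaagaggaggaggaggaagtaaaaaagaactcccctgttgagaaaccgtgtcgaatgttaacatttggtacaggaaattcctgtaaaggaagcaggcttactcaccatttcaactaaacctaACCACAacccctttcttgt
Il1rl1: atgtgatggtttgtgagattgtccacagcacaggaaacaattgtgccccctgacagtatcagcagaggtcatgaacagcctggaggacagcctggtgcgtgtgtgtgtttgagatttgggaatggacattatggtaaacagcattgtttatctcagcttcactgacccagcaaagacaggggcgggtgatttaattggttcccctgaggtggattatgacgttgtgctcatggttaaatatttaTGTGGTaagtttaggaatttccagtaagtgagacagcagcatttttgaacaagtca
Il18 held a match at base -65, and the windows of Il1r1, Il1r2 and Il1rap held none. A match is a stretch of letters and does not show binding. CUT&Tag samples for RUNX2 and H3K4me3 were not analysed here.

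Runx2 itself checked the genotype labels. Its mean CPM was 122 ± 3.49 in the 3 WT libraries of HSC, 85.1 ± 3.9 in the het and 26.0 ± 1.73 in the hom libraries (± SD), and in HPC it was 126 ± 3.87, 104 ± 4.4 and 23.5 ± 1.09. CPM are counts scaled to library size, here with trimmed-mean (TMM) factors over all 18 libraries. Library totals ran from 16663497 to 27061457 counts, and 3 counts correspond to 0.103 to 0.191 CPM. Procr, which encodes CD201, was at 45.5 CPM in WT HSC and 5.61 in WT HPC. Slamf1, which encodes CD150, was at 19.0 CPM in WT HSC and still at 10.7 in WT HPC, and Kit was present throughout. Ly6a, which encodes Sca1, had 0 counts in all 18 libraries although its exons overlap no other annotated gene. The summed level of 7 neutrophil-lineage markers was far higher in HPC than in HSC libraries. It was 1348 CPM in WT HPC against 34.1 in WT HSC, most of it from Mpo (1304 CPM in WT HPC). Ltf, 1 of the 7, went the other way, with 12.1 CPM in WT HSC and 2.69 in WT HPC. Ddx3y, on the Y chromosome, was counted in 9 of 9 HSC and in 0 of 9 HPC libraries, so cell type cannot be told apart from the sex of the source or from anything else that differs between the 2 tables.

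Il18r1, the ligand-binding chain for IL-18, stepped down with each lost Runx2 allele in both cell types. In HSC it stood at 11.2, 11.01 and 8.06 CPM in the WT libraries, at 5.63, 4.85 and 5.01 in het and at 2.47, 2.95 and 2.30 in hom. In HPC the WT libraries held 11.8, 11.2 and 10.8 CPM, the het libraries 7.60, 6.66 and 6.83, and the hom libraries 2.23, 1.56 and 2.66. No library of 1 genotype overlapped a library of another within a cell type, and the order WT, het, hom was the same in both. The group mean was 51.3% of WT in het and 25.5% in hom HSC, and 62.5% and 19.1% in HPC. Runx2 itself was at 69.7% and 21.3% of WT in HSC and at 82.6% and 18.6% in HPC. In bulk RNA, fewer cells that carry a transcript and less of it in each cell cannot be told apart.

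In HPC, Il18r1 fell in het against WT by 0.68 on the log2 scale (SE 0.14, edgeR quasi-likelihood adjusted p = 0.00301) and in hom against het by a further 1.70 (SE 0.17, adjusted p = 1.94e-05). These 2 comparisons share the het libraries, and each shares a group with the comparison that chose the gene. In HSC the corresponding differences did not pass with edgeR. The het against WT difference of Il18r1 in HSC was -0.95 ± 0.18 (SE, edgeR adjusted p = 0.117), and hom against het was -0.99 ± 0.20 (adjusted p = 0.0818). With DESeq2 in place of edgeR both passed (adjusted p = 0.00195 and 0.00505), and they also passed with no filter on low counts. The descriptive difference between hom and WT was -1.94 ± 0.20 in HSC and -2.38 ± 0.17 in HPC. The test of whether the loss of expression differed between the cell types gave 0.42 ± 0.26 for hom (edgeR adjusted p = 0.412) and -0.28 ± 0.23 for het (adjusted p = 0.689), so no difference between HSC and HPC was shown.

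**Figure D1:**
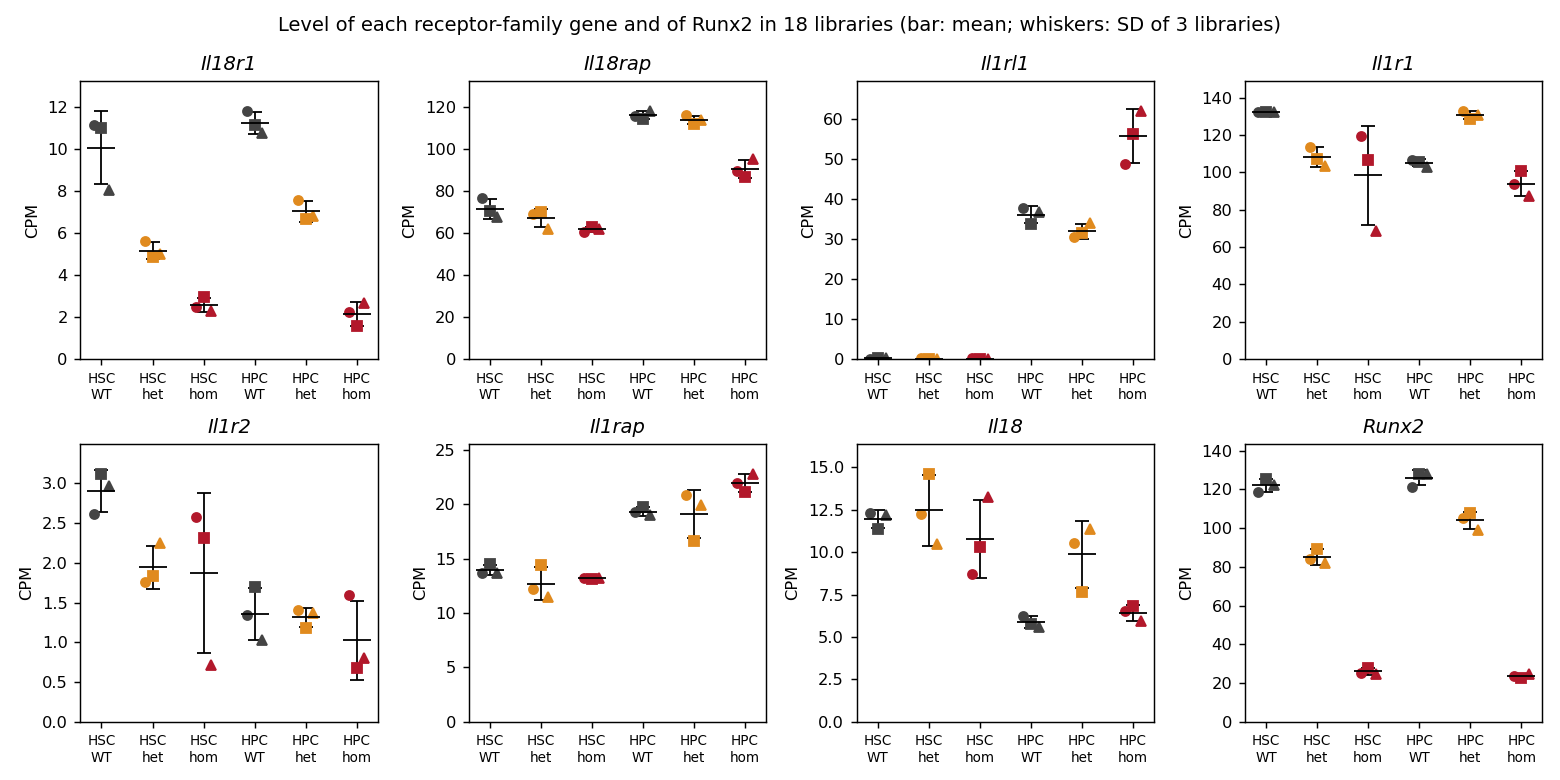
Level of each member and of Runx2 in CPM (linear axes that start at 0), by cell type and genotype. Points are libraries (circle, square and triangle for replicates 1, 2 and 3), horizontal bars are means and whiskers the SD of 3 libraries. Il18r1 steps down with each lost allele in both cell types, from 10.1 to 2.57 CPM in HSC and from 11.3 to 2.15 in HPC, while Il1rl1 is near 0 in HSC and highest in hom HPC.

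Il18rap, the accessory chain for IL-18, was far more abundant than its partner and changed less. The HPC libraries held 116, 114 and 118 CPM in WT, 116, 112 and 114 in het, and 89.7, 86.7 and 95.2 in hom. All 3 hom libraries lay below all 6 others, whereas WT and het overlapped. Il18rap fell by 0.33 in hom against het HPC (log2; SE 0.06, edgeR adjusted p = 0.00127), and het against WT gave -0.02 ± 0.06 (adjusted p = 0.835). The described hom against WT difference was -0.35 ± 0.06, which left 78.0% of the WT level.

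In HSC, Il18rap stood at 76.6, 70.3 and 67.6 CPM in WT, at 69.0, 70.1 and 62.0 in het and at 60.5, 62.7 and 61.9 in hom. The hom libraries lay just below the WT libraries, and het spread across both. The difference was -0.08 ± 0.08 in het against WT (log2 ± SE, edgeR adjusted p = 0.67) and -0.10 ± 0.08 in hom against het (adjusted p = 0.649). The hom effect in HSC minus that in HPC was 0.15 ± 0.09 (edgeR adjusted p = 0.408).

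The ratio of Il18r1 to Il18rap was lower in het than in WT libraries and lowest in hom libraries of both cell types. Per kb of exon, Il18r1 was at 0.138 ± 0.0189 of the level of Il18rap in WT HSC (SD, n = 3), at 0.0757 ± 0.00679 in het and at 0.0409 ± 0.00491 in hom. In HPC the ratio was 0.0952 ± 0.00547 in WT, 0.0605 ± 0.00331 in het and 0.0232 ± 0.00499 in hom. Read the other way, WT HSC held 7.35 Il18rap transcripts per Il18r1 transcript and hom HSC 24.7, and WT HPC held 10.5 and hom HPC 44.7. No ratio of 1 genotype overlapped that of another within a cell type. These are transcript ratios and say nothing of protein at the cell surface.

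**Figure D2:**
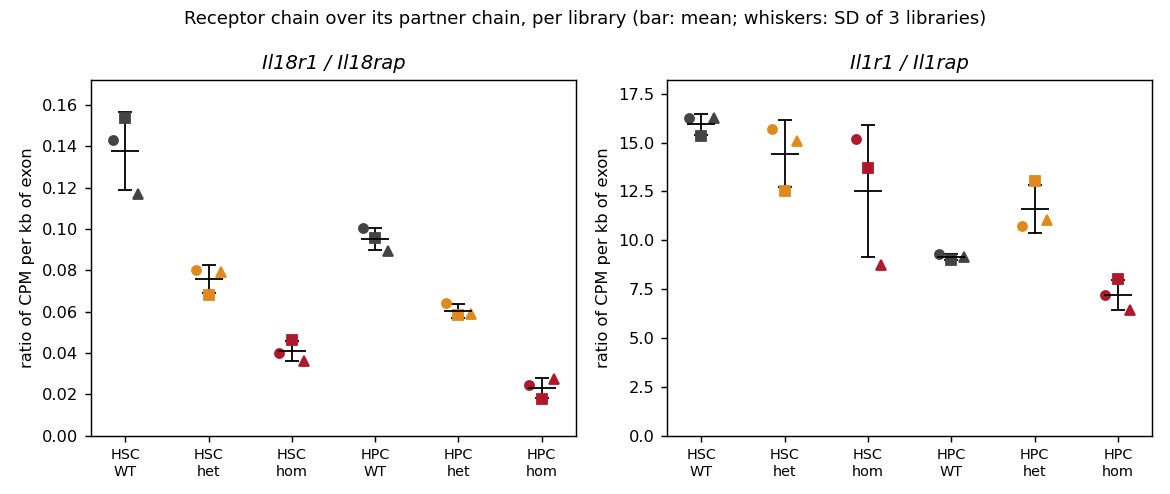
Ratio of a ligand-binding chain to its accessory chain, each as CPM per kb of exon, by group (linear axes that start at 0). Points are libraries, bars are means and whiskers the SD of 3 libraries. Il18r1 over Il18rap steps down from WT to het to hom in both cell types (0.138 to 0.0409 in HSC), while Il1r1 over Il1rap is highest in het among the HPC groups.

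Il1rl1, which encodes ST2, the receptor for IL-33, had the largest difference between the cell types of all 7 members and was highest in hom HPC, where Il18r1 was lowest. The HSC libraries held between 0 and 9 counts of it, at or below 0.361 CPM, too few to enter the HSC comparisons, and no fold between HSC genotypes is given. The HPC libraries held 37.8, 33.7 and 36.7 CPM in WT, 30.4, 31.5 and 34.1 in het and 48.7, 56.4 and 62.1 in hom. All hom libraries lay above all WT and het libraries. Il1rl1 rose by 0.80 in hom against het HPC (log2; SE 0.09, edgeR adjusted p = 2.56e-05), and het against WT gave -0.17 ± 0.09 (adjusted p = 0.225). The described hom against WT difference was 0.63 ± 0.09, or 155% of the WT level. Mean levels were 0.202 CPM in WT HSC and 36.0 in WT HPC (0 to 9 and 676 to 783 counts). Because the gene passed the filter on low counts only through HPC, this difference is given with no test.

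The summed level of mast cell and basophil markers was highest in the same HPC group as Il1rl1. This sum of 8 markers was 146 to 169 CPM in WT HPC libraries, 154 to 170 in het and 228 to 260 in hom, and 3.54 to 10.6 in all 9 HSC libraries. In hom against het HPC, 5 of the 8 markers were tested and all 5 rose (edgeR adjusted p under 0.05), among them Hdc (0.87 ± 0.09), Ms4a2 (0.61 ± 0.08) and Cpa3 (0.56 ± 0.08). Over all 13855 genes tested in HPC, 3.63% were called higher in hom against het. The shares were 4.92% higher and 4.29% lower in hom against WT, and 9.15% higher and 6.99% lower in het against WT. Of the 5 tested mast cell and basophil markers, 3 rose and 1 fell in hom against WT HPC, and 2 rose and 1 fell in het against WT. The 2 that rose in het were Cpa3, from 57.1 to 69.3 CPM (0.28 ± 0.09, edgeR adjusted p = 0.0327), and Hdc, from 13.8 to 17.5 CPM (0.35 ± 0.10, adjusted p = 0.0171). The marker that fell was both times Fcer1a, a chain of the IgE receptor, with means of 14.8, 4.72 and 8.67 CPM in WT, het and hom HPC. Its difference was -0.77 ± 0.19 in hom against WT (log2 ± SE, edgeR adjusted p = 0.0214) and -1.64 ± 0.21 in het against WT (adjusted p = 0.000106). The tryptase gene Tpsab1 was at 0 in every HPC library, and Cma1 and Tpsb2 were at 3 counts or fewer in het HPC. Monocyte and neutrophil markers were also higher in hom HPC: the sum of 6 monocyte and macrophage markers was 310 ± 18.1 CPM for WT, 567 ± 2.88 for het and 634 ± 44.7 for hom, and the sum of 7 neutrophil markers 1348 ± 30.8, 1768 ± 205 and 2169 ± 53.0 (± SD over 3 libraries). Il1rl1 averaged 36.0, 32.0 and 55.7 CPM in WT, het and hom HPC. The sum of 8 markers of type 2 innate lymphoid cells, another ST2-bearing type, was 48.5 to 51.4 CPM in WT, 63.9 to 67.1 in het and 49.7 to 63.7 in hom HPC, with Il5, Areg and Klrg1 at 3 counts or fewer in each group. The part of any of these cell types in the level of Il1rl1 was not tested.

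**Figure D3:**
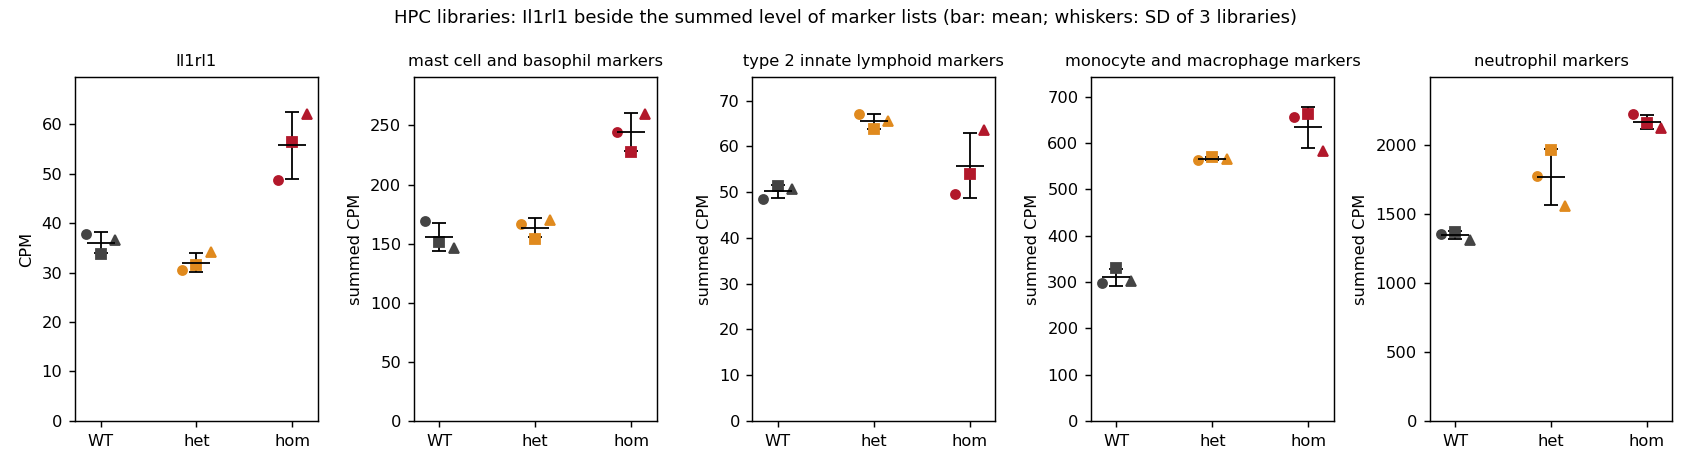
Il1rl1 (CPM) and the summed CPM of 4 marker lists in the 9 HPC libraries, by genotype (linear axes that start at 0, scaled per panel). Points are libraries, bars are means and whiskers the SD of 3 libraries. Il1rl1 and the mast cell and basophil sum are both highest in hom (55.7 and 244 CPM) with WT and het overlapping. The monocyte and macrophage sum has means of 310, 567 and 634 CPM in WT, het and hom. Within the mast cell and basophil sum, Cpa3 and Hdc were higher and Fcer1a lower in het than in WT.

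Il1r1, the signalling receptor for IL-1, was the most abundant member per length in HSC and the next after Il18rap in HPC. In HPC it stood at 107, 106 and 103 CPM in WT, at 133, 129 and 131 in het and at 93.7, 101 and 87.5 in hom. The 3 genotypes did not overlap, with het highest and hom lowest. Il1r1 rose in het against WT HPC by 0.32 on the log2 scale (SE 0.06, edgeR adjusted p = 0.00103) and fell in hom against het by 0.48 (SE 0.06, adjusted p = 7.4e-05). The described hom against WT difference was -0.16 ± 0.06, or 89.4% of WT.

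In HSC, Il1r1 stood at 132, 132 and 133 CPM in WT, at 114, 107 and 103 in het and at 120, 107 and 68.8 in hom. Every het and hom library lay below the WT libraries, and hom replicate 3 lay far below the other 2 of its group. Het against WT gave -0.28 ± 0.15 (log2 ± SE, edgeR adjusted p = 0.439), and hom against WT was described by -0.40 ± 0.15, or by -0.20 without hom replicate 3. The het against WT estimate was negative in HSC and positive in HPC, and the test of that difference gave -0.61 ± 0.17 (edgeR adjusted p = 0.0827). It passed with DESeq2 (adjusted p = 0.0171) and with no filter on low counts (1.72e-05), and stayed uncalled in the 15 other alternative fits (edgeR adjusted p up to 0.227).

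Il1r2, the decoy receptor for IL-1, was rare, with 13 to 76 counts per library. In HSC it stood at 2.61, 3.12 and 2.97 CPM in WT, at 1.75, 1.83 and 2.25 in het and at 2.58, 2.31 and 0.717 in hom, where replicate 3 again stood apart. In HPC it stood at 1.34, 1.69 and 1.03 CPM in WT, at 1.40, 1.18 and 1.37 in het and at 1.60, 0.677 and 0.804 in hom. The genotypes overlapped in HPC, and no genotype comparison of Il1r2 passed in either cell type. The het against WT difference was -0.57 ± 0.36 in HSC (log2 ± SE, edgeR adjusted p = 0.509) and -0.04 ± 0.34 in HPC (adjusted p = 0.962). With so few counts these SEs were larger than those of any other tested member.

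Il1rap, the accessory chain shared by the receptors for IL-1 and IL-33, had no genotype comparison that passed. In HSC it stood at 13.7, 14.5 and 13.7 CPM in WT, at 12.2, 14.4 and 11.5 in het and at 13.2, 13.1 and 13.2 in hom. In HPC it stood at 19.3, 19.7 and 19.0 CPM in WT, at 20.8, 16.6 and 19.9 in het and at 21.9, 21.1 and 22.8 in hom. The hom HPC libraries lay just above the others. The hom against het difference was 0.20 ± 0.09 in HPC (log2 ± SE, edgeR adjusted p = 0.195) and 0.08 ± 0.12 in HSC (adjusted p = 0.86). Per kb of exon, Il1r1 exceeded Il1rap 15.9-fold in WT HSC, 14.4-fold in het and 12.5-fold in hom. In the HPC libraries (± SD, n = 3) the ratio was 9.15 ± 0.146 for WT, 11.6 ± 1.24 for het and 7.22 ± 0.775 for hom, and the 3 genotypes did not overlap.

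Transcripts of Il18, the ligand, were counted in all 18 libraries. In HPC it stood at 6.26, 5.78 and 5.58 CPM in WT, at 10.5, 7.67 and 11.4 in het and at 6.50, 6.82 and 5.93 in hom. The het libraries lay above all 6 others, which overlapped. Il18 rose in het against WT HPC by 0.75 on the log2 scale (SE 0.15, edgeR adjusted p = 0.0017) and fell in hom against het by 0.62 (SE 0.15, adjusted p = 0.0128). The second call was lost without het replicate 3 (-0.50, adjusted p = 0.077) and without hom replicate 3 (-0.56, adjusted p = 0.053). In HSC, Il18 stood at 12.3, 11.3 and 12.2 CPM in WT, at 12.3, 14.6 and 10.5 in het and at 8.71, 10.3 and 13.2 in hom, and all genotypes overlapped. The het effect in HSC minus that in HPC was -0.69 ± 0.23 (edgeR adjusted p = 0.149).

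Members called were counted in the comparisons other than hom against WT. In het against WT HPC, Il18 and Il1r1 were called higher and Il18r1 lower, where 16.1% of 13855 genes were called, 9.15% higher and 6.99% lower. In hom against het HPC, Il1rl1 was called higher and Il18r1, Il18rap, Il1r1 and Il18 lower, where 9.4% of genes were called, 3.63% higher and 5.77% lower. The median log2 difference over the 7 members was -0.37 there, against 0.00305 over all genes tested. In HSC, edgeR called 0 of 6 members in het against WT, where 0.0334% of 14959 genes were called, and 0 of 6 in hom against het, where 0.0134% were. Il18r1 had an unadjusted p under 0.05 in each of these 2, and DESeq2 called it in both. The comparisons within a cell type share libraries with each other and are not independent. Those counted here also each share a group with hom against WT, so the counts and the median are not free of the choice of members. In the tests of whether a genotype effect differed between HSC and HPC, edgeR called 0 of 7 members for hom, where 2.79% of 15431 genes were called, and 0 of 7 for het, where 1.94% were. Il1rl1 entered these tests only through HPC. At an unadjusted p under 0.05 there were 0 and 2 (Il1r1 and Il18), and DESeq2 called 0 and 1.

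Groups whose libraries did not overlap were common among all genes. In hom against WT, 5 of 6 tested members did not overlap in HSC (25% of all genes) and 5 of 7 in HPC (26.7%), but the members were chosen on this comparison, so nothing is read from these 2 counts. In het against WT the counts were 3 of 6 in HSC (23.2% of all genes) and 3 of 7 in HPC (33.6%). In hom against het they were 1 of 6 in HSC (16.2%), which was Il18r1, and 6 of 7 in HPC (27.2%), all but Il1r2. These 2 comparisons each share a group with hom against WT, so their counts too are not free of the choice of members. Between the WT populations, leaving out Il1rl1, 5 of 6 members did not overlap, all but Il18r1, where 64.5% of all genes did not.

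**Figure D4:**
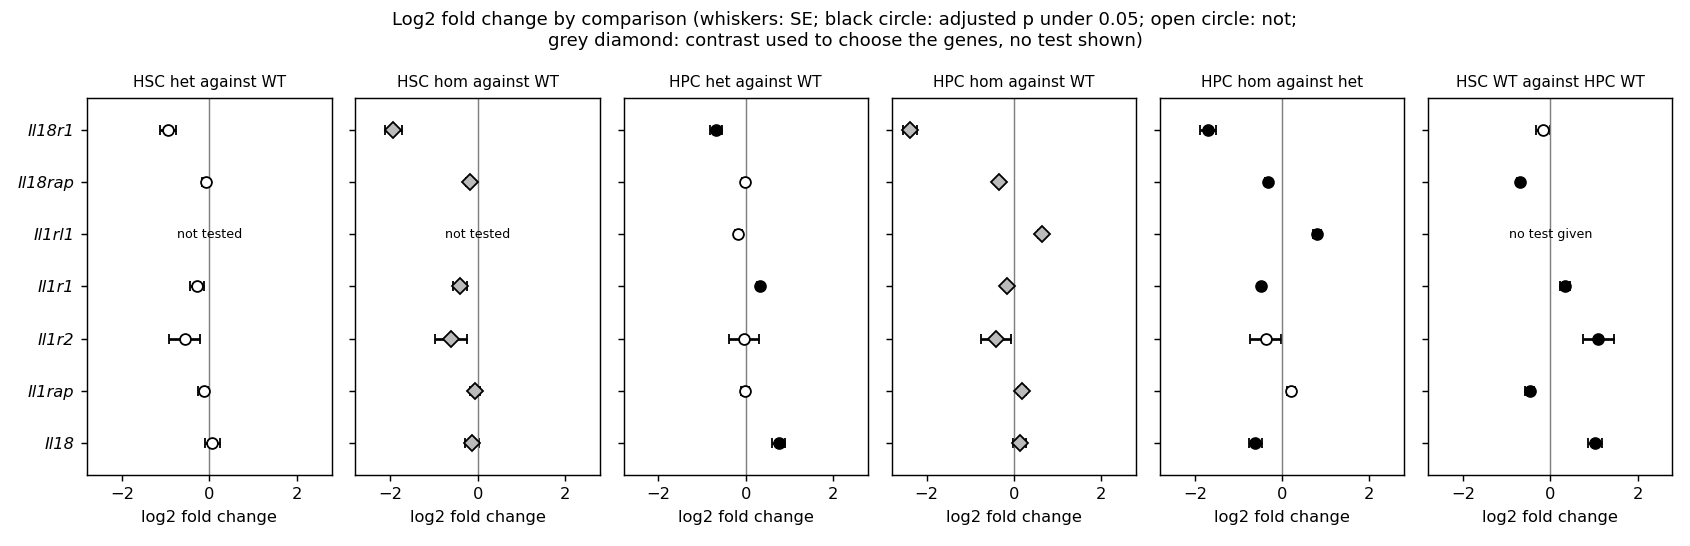
Log2 fold change of each member in 6 comparisons, with SE as whiskers. Black circles passed an edgeR adjusted p under 0.05, open circles did not, and grey diamonds belong to the comparison used to choose the genes. Il1rl1 is not drawn in the comparisons that involve HSC, where it had 9 counts or fewer per library. Il18r1 lies furthest to the left in all 4 comparisons with WT of the same cell type, and Il1rl1 lies to the right in hom HPC against both WT and het.

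Between the WT populations, and leaving out Il1rl1, 5 of 6 members differed, where 54.9% of 15431 genes were called, 27.7% higher in HSC and 27.2% lower. Il18 was higher in HSC (1.02 ± 0.17, log2 ± SE, edgeR adjusted p = 1.82e-05), as were Il1r2 (1.10 ± 0.36, adjusted p = 0.0119) and Il1r1 (0.33 ± 0.12, adjusted p = 0.0268). Il18rap was lower in HSC (-0.70 ± 0.06, edgeR adjusted p = 4.65e-09), as was Il1rap (-0.47 ± 0.10, adjusted p = 0.00055). Il18r1 gave -0.16 ± 0.16 (adjusted p = 0.408). The call of Il1r1 was lost when any 1 of the 6 libraries was left out (adjusted p from 0.0583 to 0.0886), and that of Il1r2 without HPC replicate 3 (0.0636). TMM scaling placed HSC values lower by 0.18 on the log2 scale than scaling by total counts would. The estimate of Il18r1 is smaller than this shift, and those of the 5 members called are larger.

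Per kb of exon, which allows genes to be compared, Il1r1 and Il18rap made up most of the family's RNA. In WT HSC, Il1r1 was at 19.7 CPM per kb, Il18rap at 14.3, Il18 at 7.0, Il18r1 at 1.98, Il1rap at 1.24, Il1r2 at 0.713 and Il1rl1 at 0.0271, where the median gene tested was at 5.81. In WT HPC the order was Il18rap (23.2 CPM per kb), Il1r1 (15.6), Il1rl1 (4.83), Il18 (3.44), Il18r1 (2.21), Il1rap (1.71) and Il1r2 (0.333), where the median was 5.5. The share of Il18r1 in the family's summed level per kb went from 4.4% in WT to 1.42% in hom HSC and from 4.3% to 0.919% in HPC.

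The order of the 6 groups differed between members. Il18r1 ran from WT HPC and WT HSC, which overlapped, through het HPC and het HSC to hom HSC and hom HPC, which overlapped again. Il18rap kept all HPC groups above all HSC groups, with hom HPC the lowest of the former. Il1r1 had WT HSC and het HPC at the top, overlapping, and hom HPC at the bottom. For Il18 the 3 HSC groups and het HPC overlapped at the top, and hom HPC and WT HPC overlapped at the bottom.

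The pattern of Il18r1 was set against that of 12693 other genes over the 18 libraries, on log2 CPM with each cell type's mean subtracted. The genes most like it were Tox (Pearson r = 0.968), Runx2 (0.958), Hdgfl3 (0.952), Il18rap (0.924) and Slc35f2 (0.917). The points share libraries and genotypes, so these values describe a ranking and no test is attached. Tox, a transcription factor of T cell development, had means of 17.8, 11.6 and 7.31 CPM in WT, het and hom HSC and 16.7, 12.7 and 5.74 in HPC. Hdgfl3 had 79.4, 59.8 and 51.1 CPM in HSC and 55.7, 37.1 and 24.0 in HPC. Among the other members, r with Il18r1 was 0.587 for Il1r1, 0.55 for Il1r2, 0.132 for Il18, -0.179 for Il1rl1 and -0.257 for Il1rap. The T cell marker genes Cd3e and Cd8a were at 3 counts or fewer in every group, and the summed level of 5 T cell markers was at most 1.24 CPM in any library.

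The neighbourhood of Il18r1 was examined next. Of 27 further annotated genes within 1 Mb, 10 were tested in HSC and 6 in HPC, among them the related receptor gene Il1rl2 in both. Both edgeR and DESeq2 called 0 of them in each of the 6 genotype comparisons. Over all genes, edgeR called 0.0134% to 2.01% in the HSC comparisons and 9.21% to 16.1% in those of HPC. A count of 0 among so few genes therefore shows little. At an unadjusted edgeR p under 0.05 there was 1 in hom against WT HSC, 1 in hom against het HSC and 1 in hom against het HPC. Within the cluster, Il1rl1, which ends just upstream of Il18r1, moved in the opposite direction in hom HPC.

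**Figure D5:**
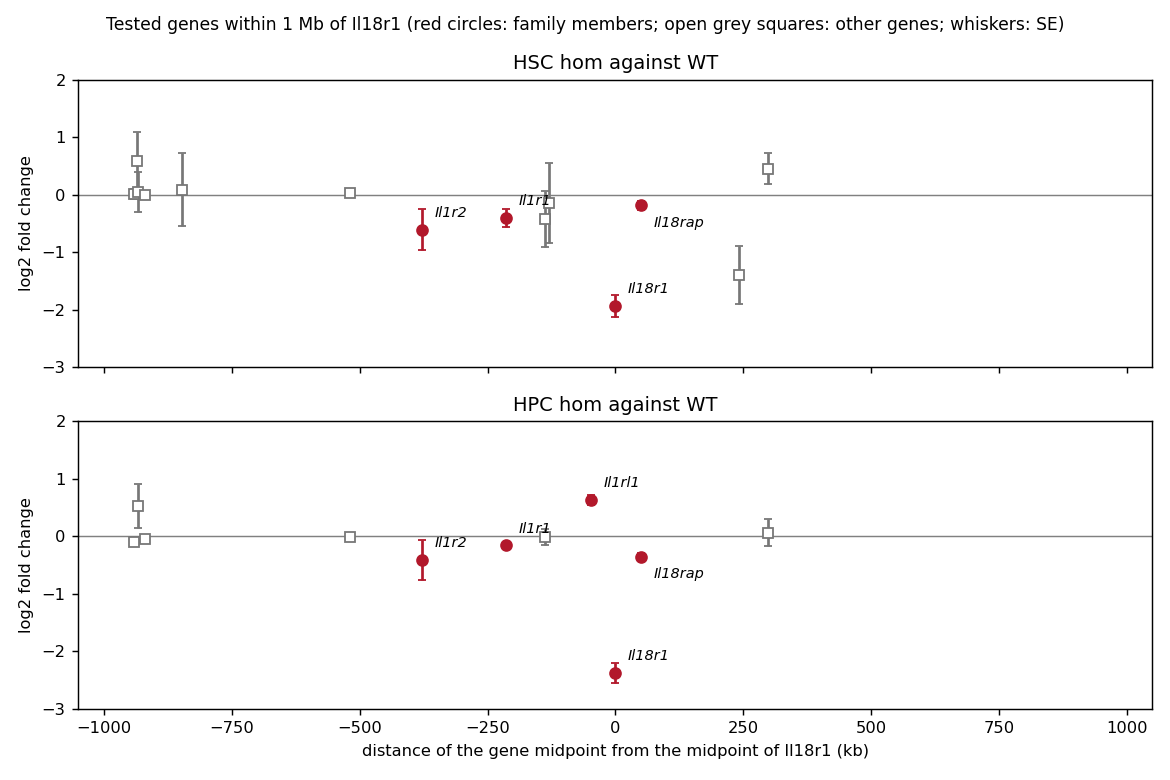
Log2 difference between hom and WT (with SE) of the tested genes within 1 Mb of Il18r1, against the distance of their midpoints in kb, for HSC (top) and HPC (bottom). Red circles are the family members followed here and open grey squares other genes, among them the related receptor gene Il1rl2. Il18r1 lies at -1.94 in HSC and -2.38 in HPC with its neighbours nearer 0, except 1 grey HSC gene with a wide error bar near -1.4.

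The rest of the pathway was described by 61 genes in 6 lists, which were chosen with earlier results of these data known. In HSC, 47 were tested and edgeR called 0 in each of the 3 genotype comparisons, among them hom against WT, where 2.01% of 14959 genes were called (1.2% higher and 0.802% lower). Unadjusted p-values under 0.05 numbered 10 in hom against WT, 10 in het against WT and 5 in hom against het, and DESeq2 called 2, 3 and 1. In HPC, 51 were tested. In het against WT 13 rose and 2 fell, in hom against WT 4 rose and 4 fell, and in hom against het 0 rose and 7 fell. Over all genes tested in HPC, 9.15% were called higher and 6.99% lower in het against WT, 4.92% and 4.29% (9.21% in all) in hom against WT, and 3.63% and 5.77% in hom against het. The pathway median was 0.07, -0.01 and -0.06 on the log2 scale in these 3 comparisons, against values between -0.00371 and 0.00305 over all genes.

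Among 10 ligands and decoys 5 were tested in HPC, and edgeR and DESeq2 called 0 of these in each genotype comparison, with 1 at an unadjusted p under 0.05 in each. The genes for IL-36 ligands are listed under older symbols, and Il1f5, Il1f6 and Il1f8 were at 0 in all 18 libraries. Il18bp, which encodes the soluble inhibitor of IL-18, was higher in WT HSC (7.72 CPM) than in WT HPC (4.14; log2 difference 0.90 ± 0.20, edgeR adjusted p = 0.000513). Il1b was lower in WT HSC (2.61 CPM) than in WT HPC (5.47; -1.06 ± 0.32, adjusted p = 0.00745). Il33, the ligand of ST2, had 5 counts or fewer in every library. Sigirr, an inhibitory receptor of the family, was higher in WT HSC (52.1 CPM) than in WT HPC (37.5; 0.48 ± 0.10, adjusted p = 0.000227).

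Of 9 genes that process IL-1 and IL-18 precursors, 4 rose in het against WT HPC. Nlrp3, an inflammasome sensor, went from 5.08 to 10.1 CPM (log2 difference 0.98 ± 0.16, edgeR adjusted p = 0.000295). Nlrp1b, another sensor, went from 1.71 to 3.58 CPM (1.07 ± 0.20, adjusted p = 0.00121), and Gsdmd, the pore-forming gasdermin, from 59.9 to 72.2 CPM (0.27 ± 0.06, adjusted p = 0.00481). Nlrc4 gave 0.53 ± 0.17 (adjusted p = 0.0374), a call lost in 7 of 12 alternative fits. Nlrp3, Nlrc4 and Nlrp1b were also higher in hom against WT HPC (1.01 ± 0.16, 0.91 ± 0.16 and 1.32 ± 0.20). Nlrp3 and Nlrc4 were low in WT HSC, at 0.307 and 0.375 CPM. Nlrp1b was not, at 1.97 CPM in WT HSC and 1.71 in WT HPC (0.21 ± 0.25, edgeR adjusted p = 0.497). The sum of monocyte markers was higher in het and hom HPC than in WT HPC, as given above. Its part in these changes was not tested.

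Of 16 genes of the signal relay, Peli2, Ikbkg and Irak2 rose and Chuk fell in het against WT HPC. Peli2, a ubiquitin ligase that acts on IRAK1, went from 38.0 to 55.2 CPM (0.54 ± 0.09, edgeR adjusted p = 0.000286), and Irak2 from 23.7 to 30.9 CPM (0.38 ± 0.08, adjusted p = 0.00263). Of 16 NF-kB factors and targets, Rel, Birc3, Cd83 and Traf1 rose in het against WT HPC and fell in hom against het, and these 2 comparisons share the het libraries. Nfkb2 fell in het against WT (-0.23 ± 0.07, edgeR adjusted p = 0.0461). In hom against WT HPC, Nfkb2, Relb, Traf1 and Cd83 were called lower and none of the list higher. Cd83, a surface protein induced by NF-kB, had means of 5.53, 8.91 and 3.05 CPM in WT, het and hom HPC. It fell by 1.55 in hom against het (SE 0.19, edgeR adjusted p = 6.63e-05). Traf1 had 10.6, 14.2 and 7.7 CPM and fell by 0.88 (SE 0.13, adjusted p = 0.000241). The rise of Cd83 in het was lost without het replicate 2 or WT replicate 2, and the fall of Birc3 in hom was lost in 9 of 12 alternative fits.

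Of 6 partners of IL-18 in the IL-12 and interferon-γ response, 3 were tested. Stat4, the transducer of IL-12 signals, rose from 78.8 to 101 CPM in het against WT HPC (0.36 ± 0.06, edgeR adjusted p = 0.000298) and fell to 85.5 CPM in hom against het (-0.24 ± 0.06, adjusted p = 0.0142). Il12rb1, a chain of the IL-12 receptor, followed the same course, at 37.6, 45.0 and 37.0 CPM (adjusted p = 0.0271 and 0.0295). Il12rb2, the other chain, was at 25.5 CPM in WT HSC and 45.4 in WT HPC (-0.84 ± 0.09, adjusted p = 4.79e-08). Ifng had at most 1 count and Tbx21 at most 4 counts in any library.

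Some markers of NK cells, which respond to IL-12 and IL-18, followed the course of Stat4 in HPC and others did not. Klrd1, a receptor chain of NK cells, had means of 7.99, 11.7 and 5.1 CPM in WT, het and hom HPC. It rose in het against WT (0.55 ± 0.13, log2 ± SE, edgeR adjusted p = 0.007) and fell in hom against het (-1.20 ± 0.14, adjusted p = 3.59e-05). Klrk1, which encodes the receptor NKG2D, had 2.65, 3.82 and 2.36 CPM, and neither difference passed (edgeR adjusted p = 0.135 and 0.0758). Klrb1c was at 0.439, 1.34 and 1.56 CPM and rose in het against WT (1.61 ± 0.35, edgeR adjusted p = 0.00393). Nkg7, a cytotoxic granule protein that makes up most of the sum of the 7 NK markers, had 92.5, 77.2 and 84.4 CPM and fell in het against WT (-0.26 ± 0.06, edgeR adjusted p = 0.00685). The sum of all 7 was 101 to 109 CPM in WT, 90.9 to 101 in het and 91.7 to 96.2 in hom HPC. Gzma was at 0 in every HPC library, Ncr1 at 3 counts or fewer and Prf1 at 7 or fewer. The part of such cells in the levels of Stat4, Il12rb1, Cd83, Traf1 and the members was not tested.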

How the data were processed

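The 18 RNA-seq libraries came as 2 tables of raw counts per gene, 1 for HSC and 1 for HPC. Per the submitters' processing notes, the authors trimmed reads with Trim Galore 0.6.10, aligned them with STAR 2.7.11a and counted them with featureCounts 2.0.6. Per the file headers, the deposited counts are read pairs over exons, summed by gene without regard to strand, with an mm10 RefSeq annotation, whereas the notes name mm39; coordinates here are those of the tables and fit mm10.

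Genes were tested with edgeR 4.0.16 (quasi-likelihood F test, robust, TMM, filterByExpr) in R 4.3.3, within each cell type over its 9 libraries, or over all 18 for comparisons across cell types. P-values were adjusted by Benjamini-Hochberg over all genes tested, and an adjusted p under 0.05 made a call. No gene was adjusted over a list alone. Levels are CPM of total counts times the TMM factor. On simulated counts the tests were checked before use. The alternatives were DESeq2 1.42.0, RLE size factors, other filters, a replicate block, fits of only the 2 groups, and leaving out each library.

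Named genes are the 7 members, Runx2, the 5 genes most like Il18r1, up to 4 called genes by p of each pathway list and comparison, and cell type markers. Members and lists were chosen with earlier results of these data known. Library totals of 16663497 to 27061457 counts set a floor of 3 counts at 0.103 to 0.191 CPM. No 2 replicates agreed within sampling noise (chi-square per degree of freedom 4.61 to 26.9 over 18 pairs).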

Additional observations from a re-analysis of the deposited data

How the results depend on the processing

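Over 60 member differences and 783 alternative values, 752 kept their direction and their side of the threshold, 10 lost a call, 10 gained one and 11 changed sign. All 11 sign changes were in differences that were not called, and all came from leaving out a library. With each library left out in turn, these differences ranged as follows (log2). Il18 ran from -0.30 to 0.00239 in HSC hom against WT, reversed without hom replicate 1, and from -0.0618 to 0.17 in HSC het against WT, reversed without het replicate 2. In HSC hom against het, Il1r1 ran from -0.28 to 0.0897, reversed without hom replicate 3. Il1r2 ran there from -0.32 to 0.35, with 0.35 without hom replicate 3 and 0.0833 without het replicate 3. In HPC het against WT, Il1r2 ran from -0.20 to 0.16 and Il1rap from -0.0826 to 0.0684. Without het replicate 2 these 2 genes gave 0.027 and 0.0684, and without WT replicate 2 they gave 0.16 and 0.0055. In the hom effect of HSC minus HPC, Il1r2 ran from -0.51 to 0.23, with 0.23 without HPC hom replicate 1 and 0.16 without HSC hom replicate 3. The causes were not tested.

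The number of members called moved by more than 1.5 times in 4 comparisons. In HSC hom against WT, which chose the genes, it was 1 and became 2 with no filter on low counts, where Il1r1 was added. In HSC het against WT it was 0 and became 1 with DESeq2, 1 with no filter and 2 with only the 2 groups fitted. In HSC hom against het it was 0 and became 1 with DESeq2, 1 with no filter and 1 without hom replicate 3, so that leaving out 1 library gave 0 to 1. In the het effect of HSC minus HPC it was 0 and became 1 with DESeq2 and 1 with no filter. In HPC the count stayed at 3 in hom against WT and in het against WT under every alternative run, and it was 4 to 5 in hom against het. Between the WT groups it was 4 to 6 with Il1rl1 included. Over all genes, calls in hom against WT HSC ranged from 48 to 638 when 1 library was left out and from 155 to 898 under the other alternatives (300 as reported), in het against WT HSC from 2 to 7 and from 5 to 399 (5 as reported), and in hom against het HSC from 1 to 408 and from 1 to 511 (2 as reported). Calls in hom against het HPC ranged from 701 to 1179 when 1 library was left out (1303 as reported). In HSC minus HPC they ranged from 149 to 941 for hom (431 as reported) and from 138 to 592 for het (300 as reported).

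Replicate numbers did not pair the libraries: libraries with the same number had deviations that correlated at -0.127 to 0.14 in HSC and at -0.114 to 0.228 in HPC, and the same number was the best match in 4 of 9 pairs of libraries in each cell type, with 3 of these in HSC between hom and WT (3 of 3 pairs). With the number as a block, the count of members called stayed at 1 in hom against WT HSC and at 3, 3 and 5 in the HPC comparisons, and Il1r2 between the WT groups gave 0.92 (edgeR adjusted p = 0.149). Without TMM factors, 21 of 42 member levels moved by over 1 SD. Without subtracting the cell type means, 3 of the 5 genes most like Il18r1 were again among the first 5. Depth limits what can be said of Il1r2 everywhere and of Il1rl1 in HSC.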
